A study of Mus musculus with 6 samples.

Results

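Gnas is an imprinted mouse gene on distal chromosome 2 that starts from several promoters. Its entries were taken by gene name from the lists of promoter regions and of peaks that were deposited for a study of methylated DNA during the conversion of fibroblasts into neurons. They came to 13 of the 29559 listed promoter regions and 5 of the 30143 peaks. Gnas was chosen by these listed values, that is, by the reads of each library and of MEF in its promoter regions, so the reads and folds below are descriptions and carry no test.

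Methylated DNA was captured with methylated DNA immunoprecipitation (MeDIP), in which an antibody pulls down DNA that carries methylated cytosines, and sequenced in 6 libraries of cells from ICR mice, with 1 library per group. The negative control was MEF, primary fibroblasts of E13.5 embryos. From these, induced neurons were made and taken at 1, 3, 5 and 7 dpi, a time unit that the labels do not spell out, and the labels name no inducing agent. The positive control was primary neurons, cultured from hippocampus of pups aged 1 day. All 6 groups carry the same passage label, 3 to 5 passages. With 1 library per group no difference has a replicate check, and cell identity could not be checked from captured DNA. The libraries were not split by parental allele.

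Imprinted genes are expressed from only 1 parental allele, and the choice is kept by DNA methylation, much of it, though not all, laid down in the egg or sperm. At Gnas the Nesp promoter, for the neuroendocrine secretory protein NESP55, is used on the maternal allele and methylated on the paternal one. The Gnasxl promoter, for the extra-large G protein XL alpha s, the antisense noncoding RNA Nespas, which starts close to it, and the exon 1A promoter of a noncoding transcript have the reverse pattern. The promoter of Gs alpha, the stimulatory G protein subunit that links hormone receptors to cyclic AMP, is free of methylation on both alleles in most tissues, although some tissues express it mainly from the maternal allele.

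Promoter sequences of 300 bases, each with 250 bases before and 50 after a RefSeq start site on the plus strand of GRCm38.p6, are shown for the 3 Gnas promoters in the RefSeq table, so that the CG letters on which capture depends can be seen. The Gnasxl promoter, which holds 7 of the 13 listed regions, has no entry in that table and is not shown here. Capitals mark CG, the dinucleotide that carries the methylation.
Nesp, chr2:174284070-174284369: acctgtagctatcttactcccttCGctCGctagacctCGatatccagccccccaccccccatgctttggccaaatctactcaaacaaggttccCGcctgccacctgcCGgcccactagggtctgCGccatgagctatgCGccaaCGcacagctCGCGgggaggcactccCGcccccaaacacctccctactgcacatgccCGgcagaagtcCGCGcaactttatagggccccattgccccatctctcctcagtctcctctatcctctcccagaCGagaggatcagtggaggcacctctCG
Exon 1A, chr2:174327499-174327798: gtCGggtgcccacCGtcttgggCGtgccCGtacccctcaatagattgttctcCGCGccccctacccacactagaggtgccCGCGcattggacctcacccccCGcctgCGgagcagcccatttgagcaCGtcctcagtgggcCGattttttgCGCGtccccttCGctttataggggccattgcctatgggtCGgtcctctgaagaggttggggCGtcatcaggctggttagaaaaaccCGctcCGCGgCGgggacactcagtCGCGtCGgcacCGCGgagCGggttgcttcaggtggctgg
Gs alpha, chr2:174329756-174330055: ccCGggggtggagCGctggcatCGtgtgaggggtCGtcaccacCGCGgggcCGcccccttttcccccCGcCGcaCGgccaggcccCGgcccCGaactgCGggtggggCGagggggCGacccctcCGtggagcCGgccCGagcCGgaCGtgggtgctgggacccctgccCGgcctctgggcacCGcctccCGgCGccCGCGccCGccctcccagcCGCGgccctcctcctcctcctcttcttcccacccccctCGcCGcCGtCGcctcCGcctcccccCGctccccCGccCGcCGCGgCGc
The Nesp sequence holds 16 CG and the exon 1A sequence 27, while the Gs alpha sequence holds 40. Of the 32851 promoters in the RefSeq table, 33.0% have at least 16 CG, 15.5% at least 27 and 3.91% at least 40, and the median is 7. The first 31 bases of the Nesp sequence, with 2 CG, lay in a region listed at 7 dpi. All 300 bases of the exon 1A sequence lay under a peak of 5 dpi. The Gs alpha sequence lay under no listed region or peak, and the closest region upstream, at 7 dpi, ended 295 bases before it. The letters TGCCGC, read on both strands, are the core of the motif of ZFP57, a zinc finger protein that binds methylated imprinting control regions. They stand in 11.6% of all promoters in the table and in none of these 3 windows.

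Every listed Gnas promoter region was higher than MEF and none was lower, in lists that hold no value for stretches that were not listed. The regions lay at 4 promoters, and no comparison had a region at all 4. A lower stretch near the Gnasxl start carries the name of Nespas and is given below. The authors listed regions up to 2 kb from the start of a transcript (TSS, transcription start site) whose reads differed between a library and MEF by their own test. The 13 regions were 200 to 520 bp long and stretched over 45.58 kb, from 174283881 to 174329460 on chromosome 2 in mm10. The higher library had 11 to 35 reads per region, with a median of 15, and MEF had 0 reads in 10 regions and 1 to 3 reads in the other 3. Of the regions, 7 belonged to the Gnasxl promoter, 3 to exon 1A, 2 to Nesp and 1 to Gs alpha. Reads are whole reads: at 1, 3 and 5 dpi the deposited values are read counts, and at 7 dpi and in primary neurons they were scaled by the authors and are divided here by the value of 1 read. Folds use the deposited values. Where MEF had 0 reads, the fold is a bound by convention, with MEF set to a floor of 3 reads per region, written as at least. This bound leaves out the counting error of the higher library. Where both libraries had reads the floor is not used, so bounds and folds cannot be ranked against each other. Intervals are exact Clopper-Pearson 95% intervals and cover the counting error only. Neither they nor the bounds allow for copies of the same molecule, because the reads carry no molecular identifiers. All 5 comparisons use the same MEF library, so a low MEF value at a place counts in each of them. Library totals were not analysed here, so a difference in depth and a difference in methylation cannot be told apart.

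**Figure D1:**
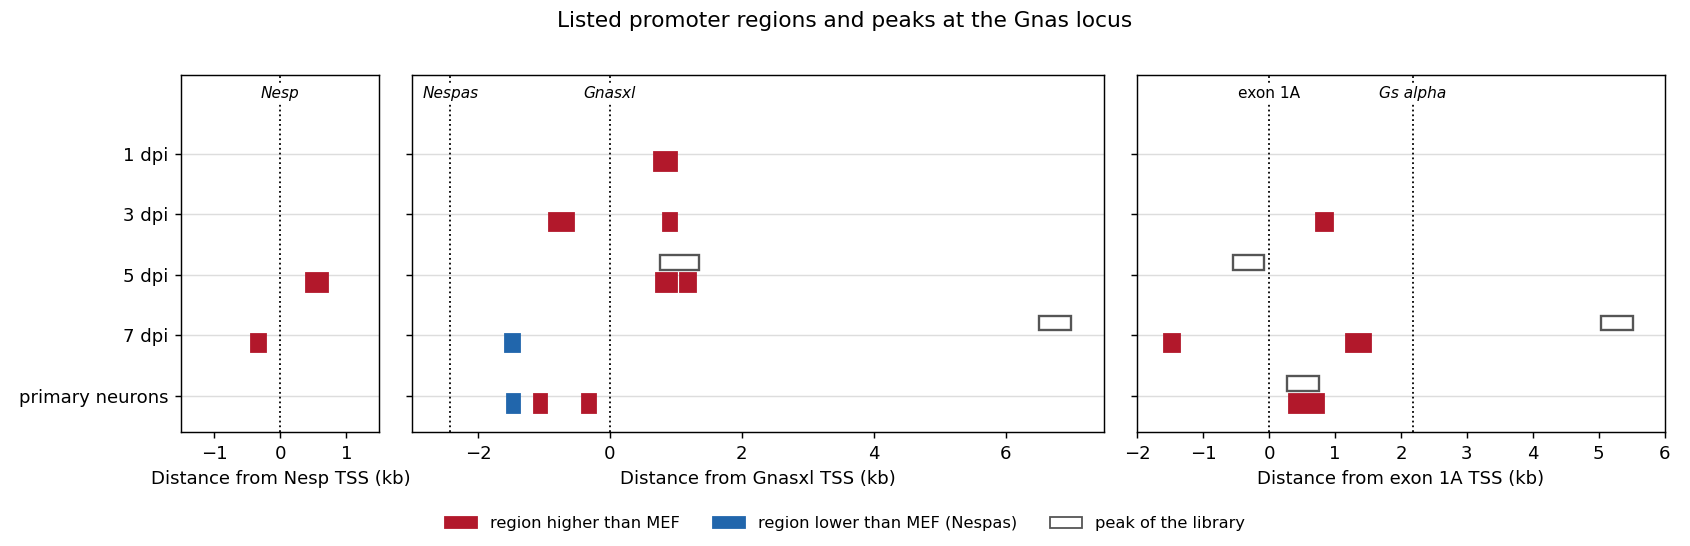
Listed promoter regions (filled bars) and peaks (open bars) along Gnas in 5 libraries, in 3 windows placed by distance in kb from the Nesp, Gnasxl and exon 1A transcription start sites (TSS, dotted lines with the Nespas and Gs alpha starts added). All 13 Gnas regions are higher than MEF (red), and both Nespas regions, at 7 dpi and in primary neurons, are lower (blue). MEF has no row because it had 0 Gnas peaks.

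The Nesp promoter, the most upstream of the 4 (TSS 174284319, NM_019690), was listed at 5 and 7 dpi. At 5 dpi the region from 174284701 to 174285040, whose middle lay 551 bp downstream of the TSS, had 18 reads against 1 in MEF (18-fold, interval 2.84 to 750.0). At 7 dpi the region from 174283881 to 174284100, 329 bp upstream of the TSS, had 11 reads against 0 (at least 4.89-fold). The regions of the 2 times lay on either side of the start site and did not overlap. No Nesp region was listed at 1 or 3 dpi or in primary neurons.

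The Gnasxl promoter (TSS 174297858, NM_201618, a transcript whose listed protein is ALEX, read in another frame from the XL exon) held 7 of the 13 regions, and the same place was listed at 1, 3 and 5 dpi. The region from 174298521 to 174298880 at 1 dpi, 842 bp downstream of the TSS, had 18 reads against 0 in MEF (at least 6-fold). At 3 dpi the region from 174298661 to 174298880 had 13 against 0 (at least 4.33-fold), and at 5 dpi that from 174298561 to 174298880 had 21 against 0 (at least 7-fold). These 3 regions shared the 220 bp from 174298661 to 174298880, which is 61.1% of the 1 dpi region, 100% of the 3 dpi region and 68.8% of the 5 dpi region. At 5 dpi a further region began 40 bp downstream, from 174298921 to 174299160, with 15 against 0 (at least 5-fold). No region was listed at this place at 7 dpi or in primary neurons, and the lists give no value for a place that was not listed.

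Upstream of the Gnasxl start, regions were listed at 3 dpi and in primary neurons. The 3 dpi region from 174296941 to 174297320, 728 bp upstream, had 26 reads against 3 in MEF (8.67-fold, interval 2.66 to 44.7), the most reads of any Gnasxl region. Primary neurons had 15 reads against 0 from 174296701 to 174296900 (at least 4.67-fold) and 12 against 0 from 174297441 to 174297640 (at least 3.73-fold). The 3 dpi region lay between these 2 and overlapped neither.

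A stretch next to these regions went the other way and carries the name of Nespas, the antisense RNA, whose TSS at 174295436 (NR_002846, minus strand) lies 2.42 kb upstream of that of Gnasxl. From 174296261 to 174296500, 7 dpi had 0 reads against 13 in MEF (at least 3.25-fold lower), and from 174296301 to 174296500 primary neurons had 0 against 13 (at least 4.64-fold lower). The middles of these regions lay 944 and 964 bp from the Nespas start and 1478 and 1458 bp from the Gnasxl start. They are thus also within 2 kb of a Gnas promoter and carry the name of the closer start. In turn, 2 higher regions named Gnas lay within 2 kb of the Nespas start. Their middles were 1694 bp (3 dpi, upstream region) and 1364 bp (primary neurons, first region) from it. In primary neurons this lower stretch ended 200 bp before the first higher Gnasxl region. MEF thus had 13 reads there and 0 to 3 reads in the 7 Gnasxl regions downstream.

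The exon 1A promoter (TSS 174327913 in the deposited lists, NR_003258) was listed in 3 comparisons, those of 3 dpi, 7 dpi and primary neurons, and it held the region with the most reads. In primary neurons the region from 174328221 to 174328740, 567 bp downstream of the TSS, had 35 reads against 1 in MEF (32.7-fold, interval 5.49 to 1327). The authors' deposited table gives this region a log2 fold change of 5.03 and a q-value of 6.37e-07. At 3 dpi the region from 174328621 to 174328880 had 11 against 0 (at least 3.67-fold), and 120 bp of it, 46.2% of that region and 23.1% of the longer one, overlapped the region of primary neurons. At 7 dpi the region lay elsewhere, from 174326321 to 174326560, 1473 bp upstream of the TSS, with 14 against 0 (at least 6.22-fold).

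Gs alpha itself (TSS 174330088, NM_001077510) had 1 region, at 7 dpi, from 174329081 to 174329460 and 818 bp upstream of the TSS. It had 11 reads against 0 in MEF (at least 4.89-fold). This region lay 2.89 reads per 100 bp deep, the lowest of the 13, whereas the Gnasxl regions held 5 to 7.5, the exon 1A regions 4.23 to 6.73 and the Nesp regions 5 and 5.29 reads per 100 bp. The Gs alpha start is only 2.17 kb downstream of that of exon 1A, and the region lies between the 2 starts.

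**Figure D2:**
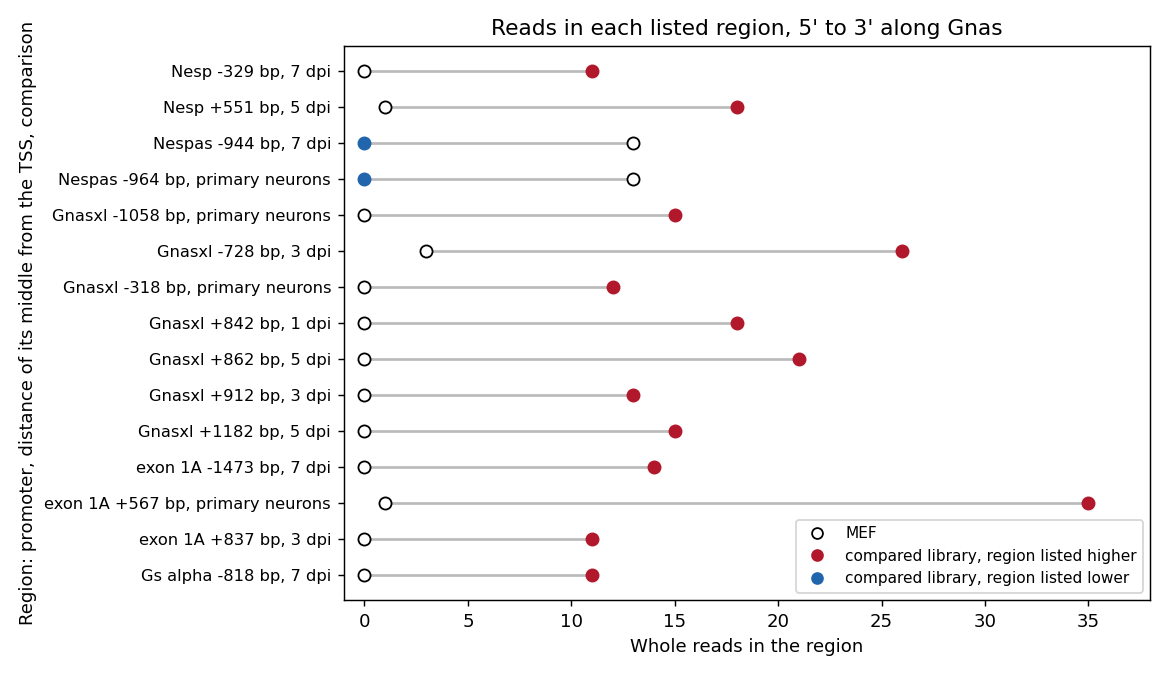
Whole reads (x axis) in MEF (open circles) and in the compared library (filled circles) for each of the 13 Gnas and 2 Nespas regions (y axis, in order along the chromosome, named by promoter, distance of the region's middle from its start site, and comparison). MEF lies at 0 to 3 reads in every Gnas region and at 13 reads in both Nespas regions, where the compared libraries have 0.

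Merged by overlap, the 13 regions lay at 10 places, of which 8 were listed in a single comparison and 2 in several: the Gnasxl place downstream of the TSS in 3 comparisons and the exon 1A place downstream of the TSS in 2. No place was listed in all comparisons, so Gnas appears in all 5 through stretches that are only partly the same. How often listed regions of other genes overlap between comparisons was not counted, so nothing particular to Gnas is read from this. At 7 dpi none of the 3 regions overlapped a region of another time or of primary neurons.

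Being listed higher was least common among all genes at 1 dpi and most common in primary neurons, and Gnas is read against that. Of 26220 genes with a curated RefSeq transcript, the shares listed higher were 1.77%, 5.23%, 3.85% and 12.4% for induced neurons in order of time and 20.4% for primary neurons. The shares listed lower were, in the same order, 10.6%, 13.2%, 10.7%, 8.87% and 15.3%, so that at 1, 3 and 5 dpi Gnas stood on the less frequent side. Gnas has more promoters than most genes, and each adds a chance of a listed region. It has 4 entries in the RefSeq promoter table, with exon 1A entered more than once and Gnasxl not entered. Among the 192 genes with at least 4 entries, the shares listed higher were 2.08%, 9.38%, 6.25%, 21.4% and 36.5%. Gnas had 1 higher region at 1 dpi and 3 in each other comparison. For these 4 comparisons, the share of genes with at least 3 higher regions was 0.0191%, 0.0763%, 0.0725% and 0.29%. Over all comparisons 5 genes, Gnas among them, had 13 or more higher regions, and the median of the 8797 genes with any was 1. Higher in all 5 comparisons were 38 genes (0.145%), of which 23 (0.0877%) were lower in none, Gnas being one of these. Of the 192 genes with at least as many promoter entries, Gnas alone was higher in all 5 (0.521%). Being listed was part of what chose the gene, so nothing is read from these shares.

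The reads behind the regions were few. The median of the higher lists was 14, 12, 13, 12 and 14 reads in the 5 comparisons in order of time with primary neurons last, and the smallest number listed was 11, 11, 11, 10 and 12. The Gnas regions at 7 dpi, with 11, 14 and 11 reads, lay close to that limit, as did the 3 dpi exon 1A region with 11 and the primary neuron region nearest the Gnasxl start with 12. The 35 reads of exon 1A in primary neurons, the 26 of Gnasxl at 3 dpi and the 21 of Gnasxl at 5 dpi lay furthest above it. For the 1 dpi region the authors' deposited table gives a p-value of 5.87e-07 and a q-value of 0.000321.

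Peaks, which the authors listed separately for each library, MEF among them, were found at Gnas in 5 dpi, 7 dpi and primary neurons. None was found in MEF, 1 dpi or 3 dpi. Fold enrichments and −log10 q-values are the authors' own scores for each peak. At 5 dpi a promoter peak from 174298617 to 174299214, with its summit 1007 bp downstream of the Gnasxl TSS, had 40 tags at the summit and a fold enrichment of 6.89 (−log10 q of 19.6). It overlapped both 5 dpi regions there. A second 5 dpi peak, from 174327361 to 174327840, had its summit 284 bp upstream of the exon 1A TSS, 28 tags and a fold enrichment of 4.88, and no region was listed under it.

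In primary neurons the peak from 174328185 to 174328664, 571 bp downstream of the exon 1A TSS, had 35 tags and a fold enrichment of 5.81. It overlapped the region with 35 reads against 1. At 7 dpi both peaks were of the gene body class, 1 from 174304372 to 174304851, 6677 bp inside the Gnasxl transcript (40 tags, 5.22-fold), and 1 from 174332953 to 174333432, 3026 bp inside the Gs alpha transcript (30 tags, 5.99-fold). Thus 3 of the 13 regions overlapped a peak of their own library in full or in part. The share of all listed regions that do so was not counted, so nothing about Gnas is read from this count. Of all peaks of the same library, 39.4% and 5.74% had a lower fold enrichment than the 2 peaks of 5 dpi, 40.9% and 54.7% than those of 7 dpi and 48.7% than that of primary neurons, so the Gnas peaks were of middling or low height. The MEF peak closest to the gene lay 112.1 kb away. The share of all genes with an assigned peak of any class was 6.9% for MEF, 5.97%, 4.51%, 11.1% and 29.2% for induced neurons in order of time, and 16.8% for primary neurons. A promoter peak was assigned to 0.461% of genes for 5 dpi and 0.622% for primary neurons.

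Other genes at or beside imprinting control regions were listed in both directions. Of 39 such genes other than Gnas, 8, 6, 14 and 12 were higher in induced neurons in order of time and 16 in primary neurons, while 4, 6, 6, 7 and 8 were lower, to be set beside the shares of all genes given above. Nespas is among the 39, and its stretch at the Gnas locus is counted as lower at 7 dpi and in primary neurons. As shares of the list the higher genes were 20.5%, 15.4%, 35.9%, 30.8% and 41.0%, beside 1.77%, 5.23%, 3.85%, 12.4% and 20.4% of all genes. The lower genes were 10.3%, 15.4%, 15.4%, 17.9% and 20.5%, beside 10.6%, 13.2%, 10.7%, 8.87% and 15.3% of all genes. Over all comparisons 29 of the 39 (74.4%) were listed at least once in either direction and 10 never, where 43.5% of all 26220 genes were listed at least once. Promoter numbers were not matched and the list was chosen with earlier results known, so nothing is read from these shares about imprinted genes. Peg13, a paternally expressed noncoding RNA, was higher in all 5 comparisons and lower in none, as Gnas was, with 13, 13, 47, 10 and 13 reads against 0, 0, 5, 0 and 0 in MEF. Peg10, a paternally expressed gene derived from a retrotransposon, was also higher in all 5, and lower further downstream at 5 dpi (2 reads against 16) and in primary neurons (0 against 16). Mest, of the hydrolase fold family, was higher in every comparison but that of 1 dpi, with 34 reads against 4 at 5 dpi. Impact, a regulator of translation, was higher at 1, 3, 5 and 7 dpi with 11 to 17 reads against 0.

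Some of these genes had the other direction. Sgce, which encodes epsilon sarcoglycan, was lower in all 5 comparisons with 0 reads against the same 13 in MEF. Its start, at 4747204 on chromosome 6, lies beside that of Peg10 at 4747305. The higher Peg10 region of primary neurons, from 4747201 to 4747400, covers both starts, so the 2 names stand for stretches of 1 locus. Trappc9, of a vesicle tethering complex, was lower from 3 dpi on and in primary neurons with 0 against 13. Zim1, an imprinted zinc finger gene, was lower in the same 4 comparisons with 0 against 13, and higher at another place in primary neurons with 12 against 0. Cdh15, a cadherin of muscle, was lower in 4 comparisons (0 against 15 in each) and higher at 1 and 5 dpi upstream of its start (12 and 22 against 0). Kcnq1ot1, the noncoding RNA of another imprinted domain, was lower in all 5 at a place where MEF had 16 reads and higher at another place at 1, 3, 5 and 7 dpi. Close to where those higher regions lay it was also lower at 3 dpi with 4 reads against 33, at 7 dpi with 0 against 21 and in primary neurons with 0 against 36. Regions in both directions in the same comparison were listed for Kcnq1ot1 at 1, 3, 5 and 7 dpi, for Cdh15 and Peg10 at 5 dpi, and for Peg10, Snrpn and Zim1 in primary neurons. For Gnas this was so only when the Nespas stretch is counted with it.

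**Figure D3:**
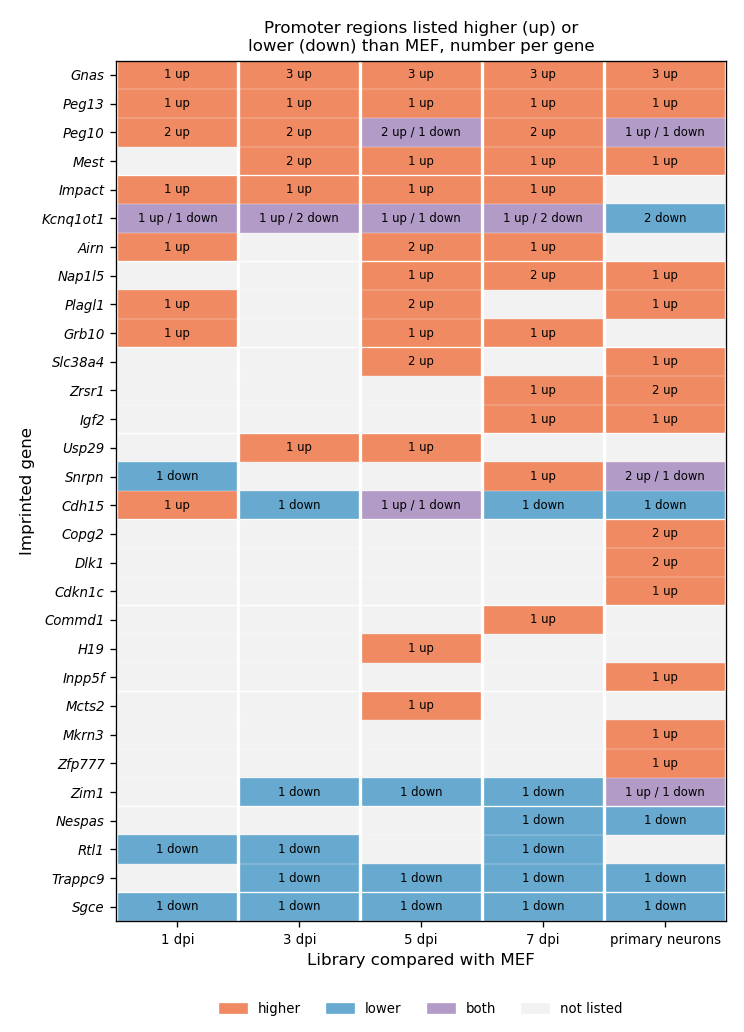
Number of promoter regions listed higher (up) or lower (down) than MEF for each gene at or beside an imprinting control region (rows) in each comparison (columns), coloured by direction, with genes listed in no comparison left out. Gnas, Peg13 and Peg10 are higher in all 5 columns, Peg10 is also lower in 2 of them, and Sgce is lower in all 5. Sgce and Peg10 start beside each other at the same locus.

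Of 13 genes along the chromosome on either side of Gnas, Nespas included, 5 (38.5%) were listed at least once, beside 43.5% of all genes. Only 12 of the 13 were found in the gene reference, so the 2 shares do not rest on quite the same genes. In order of time and then in primary neurons, 0, 1, 1, 1 and 2 of the 13 were higher and 1, 0, 1, 2 and 2 lower. These are 0 to 15.4% of the 13 in either direction. With so few genes nothing is read from these shares against those of all genes given above. Nelfcd, a subunit of the negative elongation factor of transcription, was higher at 7 dpi with 16 reads against 2 (10.7-fold, interval 2.51 to 95.6). Npepl1, an aminopeptidase-like gene, and Slmo2 were higher in primary neurons with 14 and 15 reads against 0. Vapb, a membrane protein of the endoplasmic reticulum, was lower in every comparison but that of 3 dpi, at a place where MEF had 16 reads, and higher at 3 and 5 dpi closer to its start with 17 against 1 and 14 against 0. Stx16, a syntaxin gene among the 13, was not listed.

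Genes that work with Gs alpha were listed in both directions. Of 32 genes of cyclic AMP signalling, from receptors to protein kinase A, 2, 3, 2 and 7 were higher in induced neurons in order of time and 5 in primary neurons, while 4, 2, 2, 3 and 7 were lower. As shares of the list the higher genes were 6.25%, 9.38%, 6.25%, 21.9% and 15.6%, beside 1.77%, 5.23%, 3.85%, 12.4% and 20.4% of all genes. The lower genes were 12.5%, 6.25%, 6.25%, 9.38% and 21.9%, beside 10.6%, 13.2%, 10.7%, 8.87% and 15.3% of all genes. Listed at least once were 12 of the 32 (37.5%), beside 43.5% of all genes, and 20 were never listed. These shares lie on both sides of those of all genes, and nothing is read from them about the list. Gnal, the G protein alpha subunit of olfactory and striatal neurons and the closest relative of Gs alpha, was lower in all 5 comparisons at the same place, with 0 reads against 13, and also higher at 7 dpi with 12 against 0. Pde4b, a phosphodiesterase that breaks down cyclic AMP, was lower in 4 comparisons (0 against 14) and higher at 3 dpi (19 against 0). Prkacb, a catalytic subunit of protein kinase A, was higher in 3 comparisons, those of 3 dpi, 7 dpi and primary neurons, and lower in 2, those of 1 dpi and primary neurons. Gnb1, a G protein beta subunit, was lower in 3 comparisons, those of 3 dpi, 7 dpi and primary neurons (0 against 14).

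Besides Gnas, 22 genes were higher in all 5 comparisons and lower in none. By the number of distinct regions per comparison the closest were Erdr1, with 3, 1, 2, 3 and 3 higher regions in order of time and primary neurons last, the vomeronasal receptor Vmn2r29 with 2, 2, 1, 2 and 2, Gm13718 (Btbd18 in RefSeq) and Gm11978, each with 1, 1, 2, 1 and 2, and Ano8, of the anoctamin family, with 1, 2, 1, 2 and 1. The likeness is over 5 comparisons that share MEF. Erdr1 and Vmn2r29 differed from Gnas in depth: Erdr1 had 405 reads against 56 in MEF in 1 of its regions at 1 dpi and Vmn2r29 had 449 against 113 at 5 dpi, whereas MEF had at most 3 reads in any Gnas region.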

How the data were processed

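Groups were taken from the sample titles and cell type labels. Tools named in the submitters' processing notes are CASAVA and Bowtie2 2.1.0, with mm10 as the genome build. Which peak caller and which region test were used is not given in the sources used here. In the 10 tables of promoter regions the values at 1, 3 and 5 dpi are deposited read counts. For 7 dpi and primary neurons they are a signal scaled by the authors, in which 1 read is worth 1.15 (7 dpi) against 0.866 in MEF, and 0.966 (primary neurons) against 1.04 in MEF, and 100% of values up to 20 reads were whole multiples within 0.1 read. Each region's p-value, q-value and log2 fold change are the authors' deposited ones, as are the fold enrichment ratio, the −log10 q-value and the summit tag count in the 6 peak lists.

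Entries named Gnas were collected with Python 3.11.15, pandas 2.3.3, numpy 2.4.6 and scipy 1.17.1, and figures drawn with matplotlib 3.10.9. The recovery of reads was tested on simulated data. Gene counts are over 26220 genes with a curated RefSeq transcript. Described were every Gnas entry, every listed neighbour, the 8 imprinted and 5 signalling genes listed in most comparisons, ties by the most reads in the higher library and then by name (1 of the latter is not reported here), Zim1, which only its name placed after the eighth, and the 5 genes with the most similar calls. Gene, lists and rules were chosen with earlier results of these data known. Sequences are from RefSeq, GRCm38.p6, whose table holds 4 Gnas entries. These are Nesp, Gs alpha and the exon 1A starts at 174327749, which is shown, and 174327768.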

Additional observations from a re-analysis of the deposited data

How the results depend on the processing

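With the deposited p at most 1e-05, 7 of the 13 Gnas regions were left, with 1 at 3 dpi and 1 at 7 dpi. With at least 13 reads in the higher library 9 were left, with 1 at 7 dpi. Gnas stayed listed higher in all 5 comparisons in both cases. With regions of any gene name within 2 kb of the Gnas transcripts, 1 lower region was added at 7 dpi and 1 in primary neurons, both named Nespas, and no peak. Overlap of 50% of both regions left 3 of 4 overlapping pairs. Unscaled reads moved the folds by a factor of 0.750 to 1.07. A floor of 1 read raised the bounds, 3.67 to 7, to 11 to 21. Genes of the imprinted list, Gnas included, listed higher fell to 4 (1 dpi), 2 (3 dpi), 6 (7 dpi) and 11 (primary neurons) of 40 with the stricter p, and to 4 (3 dpi) and 7 (7 dpi) with 13 reads. Those listed lower were then 0, 2, 1, 1 and 3 in the 5 comparisons with the stricter p. The stricter p and the read minimum only remove regions, so these counts can only fall. The fall among all genes was not counted, so nothing about the imprinted list is read from it. The other 51 of 67 recomputed counts stayed within 1.5 times. Some of these could not move: removal or merging leaves a Gnas lower count of 0 at 0. Merging could not change the Gnas higher counts either, because no Gnas regions of the same comparison overlap. No paired analysis was possible because each group has 1 library. Depth limits all values, since a region of 11 reads is near the smallest listed.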

Other observations

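In primary neurons the lower Nespas stretch and the first higher Gnasxl region lie 200 bp apart, and such neighbours were counted over all lists with that distance, chosen after this pair was seen. A higher region of the same comparison lay within 200 bp of 306 of 4438 lower regions in primary neurons (6.9%), 110 of 2456 at 7 dpi (4.48%), 28 of 2996 at 5 dpi, 62 of 3756 at 3 dpi and 10 of 2971 at 1 dpi. In 166 cases in primary neurons and 47 at 7 dpi the lower and the higher region overlapped.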
